A study of Mus musculus with 8 samples.

Results

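Peroxisomes are small organelles that shorten very-long-chain and branched fatty acids, and they hand the products to mitochondria, which finish the oxidation. Peroxins build them: cytosolic receptors carry enzymes to the membrane, a docking complex lets them in, a ring of ubiquitin ligases marks the spent receptor and an ATPase pulls it out again. The acyl-CoA oxidases of the pathway pass electrons to oxygen, so fat oxidation in peroxisomes makes hydrogen peroxide, which catalase removes. Many of these enzymes are known in liver to be switched on by PPAR alpha, a receptor for fatty acids in the nucleus. The 28 genes described here are 12 peroxins and 16 transporters and enzymes of peroxisomal fat oxidation, chosen by name and matched through the accession of each array probe. All 28 had a probe that stood well above background on 4 or more of the 8 arrays, among 20199 genes and unnamed probes tested.

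Messenger RNA was measured in hearts of male C57BL/6J mice, an inbred laboratory strain, aged 9 weeks, on Agilent whole mouse genome arrays with 1 colour and 1 array per heart. The 4 satiated mice had the CE-2 pellet diet, and the 4 fasted mice had been on that diet until food, but not water, was withheld for 2 days. The samples are whole hearts of several cell types, in which fewer cells of a type and less RNA per cell cannot be told apart.

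The arrays lay on 2 slides, with replicates 1 and 2 of each group on slide 1 and replicates 3 and 4 on slide 2. The share of probes well above background was 66.6% to 68.9% on slide 1 and 54.4% to 55.6% on slide 2. The number of arrays limits the precision of every value. The hearts carried cardiomyocyte RNA: 8 of 8 cardiomyocyte markers were measured, of which Actc1 was lower in the fasted hearts. Of the other cells' markers, 1 of 6 for fibroblasts (Dcn) was higher and 4 were lower (Lum, Col1a1, Col1a2, Tcf21), 1 of 4 for smooth muscle (Acta2) was lower and 1 of 3 measured for B cells (Ms4a1) was higher. None of the 6 adipocyte, 3 hepatocyte, 6 endothelial, 5 macrophage, 3 erythroid and 5 fast skeletal muscle markers measured passed. The part of these cells in the results below was not tested.

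The promoters of 4 members whose RNA differed between the groups are shown because they let the reader compare a gene that rose more than 2-fold (Cat), a docking peroxin that rose (Pex13) and the pair of reductases that fell (Decr2, Pecr). Each window holds the 250 bases before and the 50 bases after the start of transcription, 5′ to 3′ on the gene's strand, from RefSeq on build GRCm38.p6. Capitals mark the CCAAT box (CCAAT), the GC box (GGGCGG) and the core of nuclear receptor sites (AGGTCA), each searched on both strands; neighbouring GC boxes may share bases, as in Pex13.
Cat, chr2:103485104-103485403, minus strand: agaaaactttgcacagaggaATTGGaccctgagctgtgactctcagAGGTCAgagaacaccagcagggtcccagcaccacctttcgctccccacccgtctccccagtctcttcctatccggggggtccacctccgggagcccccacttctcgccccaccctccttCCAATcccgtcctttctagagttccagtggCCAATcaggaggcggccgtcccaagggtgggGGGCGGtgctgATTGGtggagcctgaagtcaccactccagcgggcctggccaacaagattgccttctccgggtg
Pex13, chr11:23665834-23666133, minus strand: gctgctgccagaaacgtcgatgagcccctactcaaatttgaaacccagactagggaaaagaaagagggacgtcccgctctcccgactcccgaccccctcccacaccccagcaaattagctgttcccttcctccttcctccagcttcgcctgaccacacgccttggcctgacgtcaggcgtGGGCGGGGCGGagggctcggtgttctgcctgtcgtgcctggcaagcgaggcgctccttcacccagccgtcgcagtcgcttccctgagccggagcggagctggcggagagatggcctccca
Decr2, chr17:26090115-26090414, minus strand: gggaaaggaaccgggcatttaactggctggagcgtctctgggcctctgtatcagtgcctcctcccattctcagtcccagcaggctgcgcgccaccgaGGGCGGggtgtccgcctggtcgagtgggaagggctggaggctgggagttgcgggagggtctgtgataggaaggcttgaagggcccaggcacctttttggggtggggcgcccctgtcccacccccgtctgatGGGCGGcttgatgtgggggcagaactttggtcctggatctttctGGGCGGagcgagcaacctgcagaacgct
Pecr, chr1:72284272-72284571, minus strand: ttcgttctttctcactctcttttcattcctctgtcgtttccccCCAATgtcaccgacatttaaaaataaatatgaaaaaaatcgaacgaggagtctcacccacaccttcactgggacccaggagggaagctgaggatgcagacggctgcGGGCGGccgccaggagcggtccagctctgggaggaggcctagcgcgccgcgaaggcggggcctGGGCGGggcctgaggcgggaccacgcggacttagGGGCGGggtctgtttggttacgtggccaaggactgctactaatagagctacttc

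The Cat window held 4 CCAAT boxes, the Pecr window 1 and the Pex13 and Decr2 windows none. A window table was matched for 23 of the 28 members, with 27 windows in all, and not for Pex2, Pex19, Abcd2, Hsd17b4 and Amacr. At least 4 CCAAT boxes stood in 3 of the 27 windows, those of Cat, Acaa1a and Acaa1b, against 1.06% of all 32851 windows. The cutoff of 4 equals the count in the Cat window, and Acaa1a and Acaa1b are close paralogues whose RNA did not pass. The comparison with 1.06% is thus no independent result. Any CCAAT box stood in 11 of the 27 windows (37.4% of all windows), a GC box in 19 (35.7%) and the receptor core AGGTCA in 3, those of Cat, Phyh and Scp2 (16.3%). Some members have more than 1 window, and those of Pex5 overlap in part. By gene, a CCAAT box stood in 10 of the 23 members and a GC box in 18. Whether these shares differ from those of all windows was not tested. The direct repeat of PPAR elements, AGGTCA written 2 times with 1 base between, the E-box CACGTG and the FoxO letters GTAAACA stood in no member window, and in 0.0396%, 7.15% and 3.65% of all windows. These matches describe letters within 300 bases and say nothing on binding.

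In the fasted hearts the peroxide-removing enzyme catalase was more than 2-fold higher, the docking and membrane-insertion peroxins Pex13 and Pex16 were higher, and the reductases Decr2 and Pecr and the ligase Pex2 were lower. Cat, Decr2 and Pex2 kept their calls when any 1 of the 8 hearts was left out. Pex13 kept its call in 6 of these 8 fits, Pex16 in 2 and Pecr in 1. The second, dimmer probe of Pex13 did not show the change. In the comparison over all 8 hearts 3 of the 28 members rose and 3 fell (limma, p under 0.05 after Benjamini-Hochberg adjustment), 21.4% of the members, where 20.2% of everything tested passed. The members' share is near that background. At an unadjusted p under 0.05, 11 members passed, beside 33.8% of everything tested. By direction, 9.82% of everything tested was higher and 10.3% lower. The median log2 change of the members, fasted minus satiated, was -0.09, and -0.00 over everything tested. The groups did not overlap for 8 members (28.6%), with 4 higher and 4 lower in the fasted hearts, against 27.6% of everything tested.

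**Figure D1:**
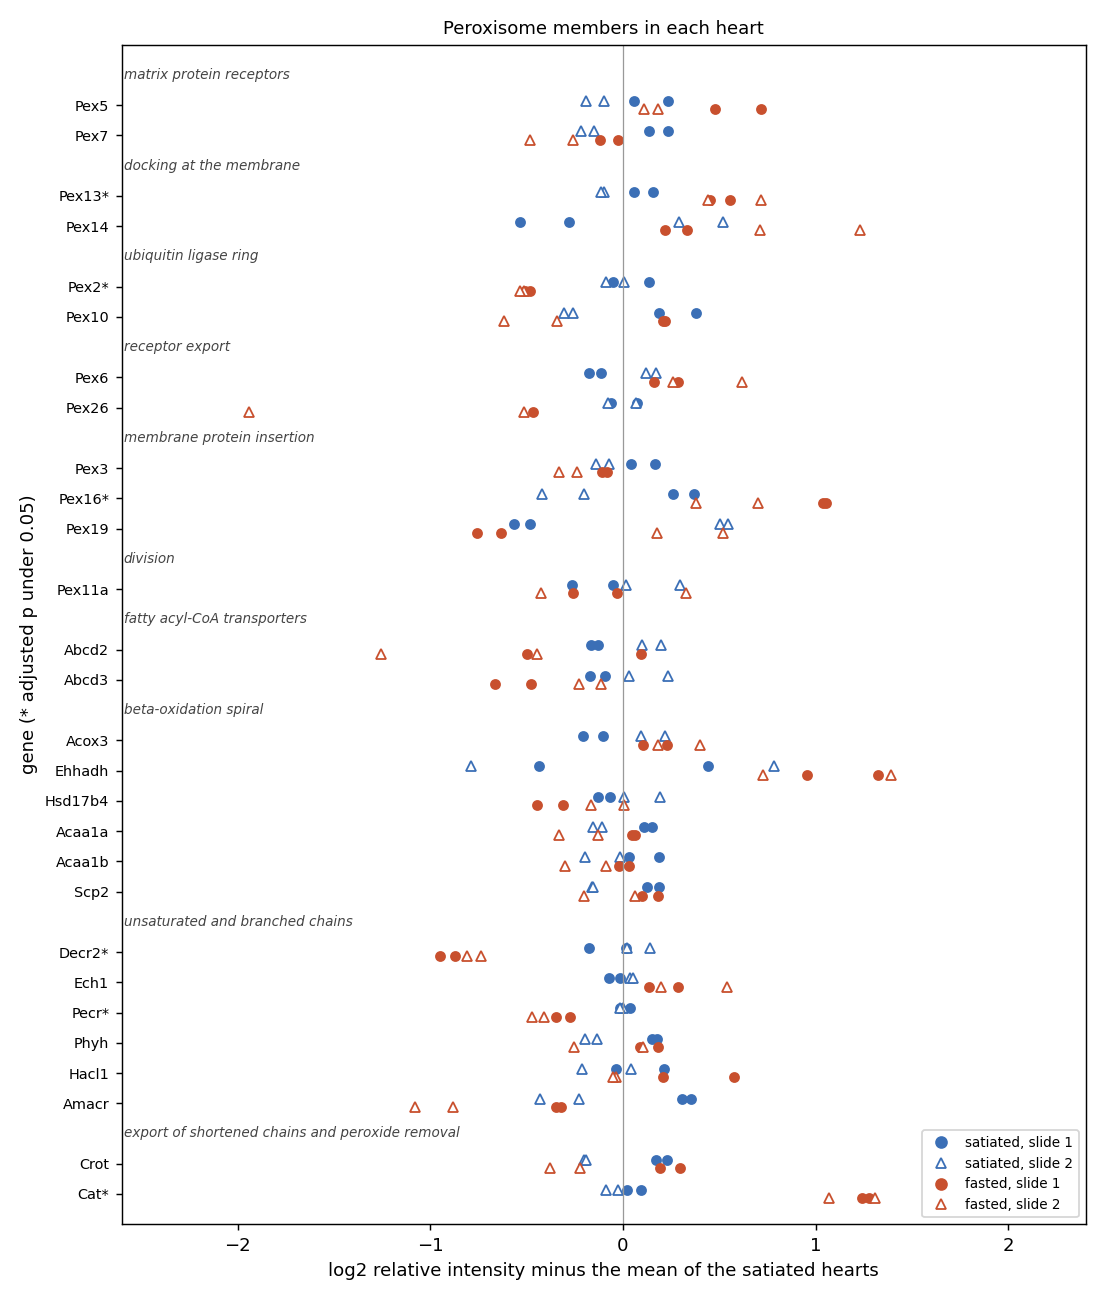
Log2 relative intensity of the 28 members in each heart (x axis), set to 0 at the mean of the 4 satiated hearts, with genes grouped by role on the y axis. Filled circles are hearts on slide 1 and open triangles hearts on slide 2; Cat stands apart to the right in all 4 fasted hearts and Decr2 to the left, while Pex19 and Amacr part by slide.

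Values per heart below are relative intensities, the background-subtracted signal of a gene's brightest kept probe divided by the 75th percentile of its array, so that 1 is the signal at that percentile. They compare hearts for 1 probe and do not compare genes with each other. Changes are log2 values, fasted minus satiated, ± SE, with 4 hearts per group.

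Catalase, encoded by Cat, breaks down the hydrogen peroxide that the peroxisomal oxidases release. Its relative intensity was 11.7, 12.3, 10.8 and 11.3 in satiated replicates 1 to 4, and 27.2, 27.9, 28.5 and 24.1 in fasted replicates 1 to 4. Every fasted heart was above every satiated heart, on both slides. The change was 1.22 ± 0.11, or 2.34-fold (adjusted p = 0.000572), with 1.202 on slide 1 and 1.246 on slide 2. It was the only member that passed at 2-fold or more, as did 7.38% of everything tested. Red blood cells also hold much catalase: the summed relative intensity of the 3 erythroid markers with a probe spanned 165 to 310 in the satiated and 223 to 315 in the fasted hearts, none of the 3 passed, and their part in the change of Cat was not tested.

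Pex13 and Pex14 form the docking site through which loaded receptors deliver enzymes. Pex13 had relative intensities of 10.55, 11.32, 9.48 and 9.38 in the satiated and of 14.9, 13.9, 16.7 and 13.8 in the fasted hearts, replicates 1 to 4. The groups did not overlap, and the change was 0.54 ± 0.12, or 1.45-fold (adjusted p = 0.0172). It no longer passed without satiated replicate 3 (0.51, adjusted p = 0.0511) or satiated replicate 4 (0.50, adjusted p = 0.0571). The gene's other probe, much dimmer at 0.17 to 0.27, did not show the change (-0.07, adjusted p = 0.84), and the mean of the 2 probes did not pass (0.24, adjusted p = 0.289).

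Pex14 was measured at 0.684, 0.817, 1.42 and 1.21 in the satiated and at 1.15, 1.25, 2.32 and 1.62 in the fasted hearts. Within each slide both fasted hearts lay above both satiated hearts, but the slides differed so much that the groups overlapped. The change of 0.62 ± 0.30 did not pass (adjusted p = 0.185). It did with the slide as a block (± 0.14, adjusted p = 0.0128) and with a block for the replicate number (adjusted p = 0.0111).

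Pex5 and Pex7 are the receptors that recognise the targeting signals of peroxisomal enzymes in the cytosol. Pex5 stood at 1.51, 1.71, 1.36 and 1.27 in the satiated and 2.39, 2.02, 1.57 and 1.65 in the fasted hearts, again with fasted above satiated within each slide. Its change of 0.37 ± 0.17 (adjusted p = 0.166) passed with the slide as a block (adjusted p = 0.0213) but not under a block for the replicate number (adjusted p = 0.0553). Pex7 ranged from 8.52 to 11.7 in the satiated and from 7.10 to 9.74 in the fasted hearts, and its change was -0.22 ± 0.16 (adjusted p = 0.368).

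Pex2 and Pex10 belong to the ring of ubiquitin ligases that marks the receptors for recycling. Pex2 had relative intensities of 1.65, 1.88, 1.72 and 1.61 in the satiated and of 1.226, 1.203, 1.198 and 1.182 in the fasted hearts. The fasted hearts lay close together and all below the satiated ones. Pex2 fell by 0.51 on the log2 scale (SE 0.10, 1.43-fold, adjusted p = 0.0114), and the call held when any single heart was left out. Pex10 spanned 0.841 to 1.35 and 0.679 to 1.21, with a change of -0.13 ± 0.25 (adjusted p = 0.762) and signal 1.55-fold lower on slide 2.

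Pex6 is an ATPase that extracts the marked receptor, and Pex26 anchors it to the membrane. Pex6 stood at 3.73, 3.90, 4.76 and 4.59 in the satiated and 4.72, 5.14, 6.48 and 5.06 in the fasted hearts. Its change of 0.33 ± 0.15 (adjusted p = 0.15) passed with the slide (adjusted p = 0.0377) or the replicate number (adjusted p = 0.0463) as a block. Pex26 stood at 0.767, 0.840, 0.757 and 0.839 in the satiated hearts and at 0.578, 0.208 and 0.561 in fasted replicates 2 to 4, the spot of fasted replicate 1 having been marked as an outlier by the scanner software and left out of the fit. The groups did not overlap, yet fasted replicate 3 lay far below the others and the change of -0.97 ± 0.35 did not pass (adjusted p = 0.0973). Without that heart the change was -0.49 and passed (adjusted p = 0.039).

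Pex3, Pex16 and Pex19 insert proteins into the peroxisomal membrane. Pex16 had relative intensities of 5.65, 6.09, 3.53 and 4.10 in the satiated and of 9.82, 9.68, 7.67 and 6.14 in the fasted hearts. The lowest fasted heart was just above the highest satiated heart, and within each slide the gap was wide. The change was 0.79 ± 0.23, or 1.73-fold (adjusted p = 0.043), and 0.73 on slide 1 and 0.85 on slide 2. The second probe of the gene gave 0.83 (adjusted p = 0.0506). The call was lost without satiated replicate 1, 3 or 4 or fasted replicate 1, 2 or 3, with changes of 0.65 to 0.88 and adjusted p of 0.0567 to 0.111, and was clearer with the slide as a block (adjusted p = 0.00184).

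Pex19, the chaperone of newly made membrane proteins, stood at 3.63, 3.42, 7.17 and 7.38 in the satiated and 3.27, 2.995, 5.72 and 7.25 in the fasted hearts. The slides, not the groups, parted these values: signal was 2.06-fold higher on slide 2 (adjusted p = 0.000778 in limma with fasting in the model), and the change with fasting was -0.17 ± 0.38. Pex3 stood at 1.89, 2.06, 1.66 and 1.74 in the satiated and 1.70, 1.73, 1.55 and 1.46 in the fasted hearts, which overlapped. It had a change of -0.19 ± 0.12 (adjusted p = 0.313) from its brighter probe and of 0.48 (adjusted p = 0.152) from its dimmer one. Pex11a, which elongates peroxisomes before they divide and is a PPAR alpha target in liver, ranged from 6.25 to 9.21 in the satiated and from 5.58 to 9.41 in the fasted hearts, with a change of -0.10 ± 0.19 (adjusted p = 0.781).

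Of the 16 transporters and enzymes 1 rose (Cat), 2 fell (Decr2, Pecr) and 13 did not pass, so that 18.8% were called, near the 20.2% of everything tested. The transporters Abcd2 and Abcd3 carry fatty acyl-CoA esters into the peroxisome. Abcd3 stood at 23.9, 25.2, 27.5 and 31.6 in the satiated and 19.3, 17.0, 22.9 and 24.9 in the fasted hearts, lower with fasting within each slide. The change of -0.37 ± 0.16 (adjusted p = 0.141) passed with the slide (adjusted p = 0.0188) or the replicate number (adjusted p = 0.0353) as a block. Abcd2 was dim, well above background in 2 of 4 hearts of each group, all on slide 1. It stood at 0.0294, 0.0287, 0.0344 and 0.0369 in the satiated and at 0.0228, 0.0343, 0.0135 and 0.0236 in the fasted hearts, with a change of -0.53 ± 0.26 (adjusted p = 0.202) that was -0.05 on slide 1, the slide where it stood above background. After normexp background correction the change over all 8 hearts was -0.001 (adjusted p = 0.995).

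Ehhadh, the L-bifunctional enzyme that hydrates and dehydrogenates the fatty acyl chain, had the largest change among the 6 members of the oxidation spiral. Its relative intensity was 1.02, 1.88, 0.803 and 2.38 in satiated replicates 1 to 4 and 2.68, 3.47, 2.29 and 3.64 in fasted replicates 1 to 4. Satiated replicate 4 reached above fasted replicate 3, so the groups overlapped. The change was 1.099 ± 0.35, or 2.14-fold, and did not pass (adjusted p = 0.0607). Replicates 2 and 4 lay above replicates 1 and 3 in both groups. Blocking on the replicate number, the SE was 0.18 and the change passed (adjusted p = 0.0132), whereas with the slide as a block it did not (adjusted p = 0.0561). Each heart was taken as that of a separate mouse, so the replicate number is no known pairing of the groups. Without satiated replicate 4 the change was 1.36 (adjusted p = 0.0338).

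**Figure D2:**
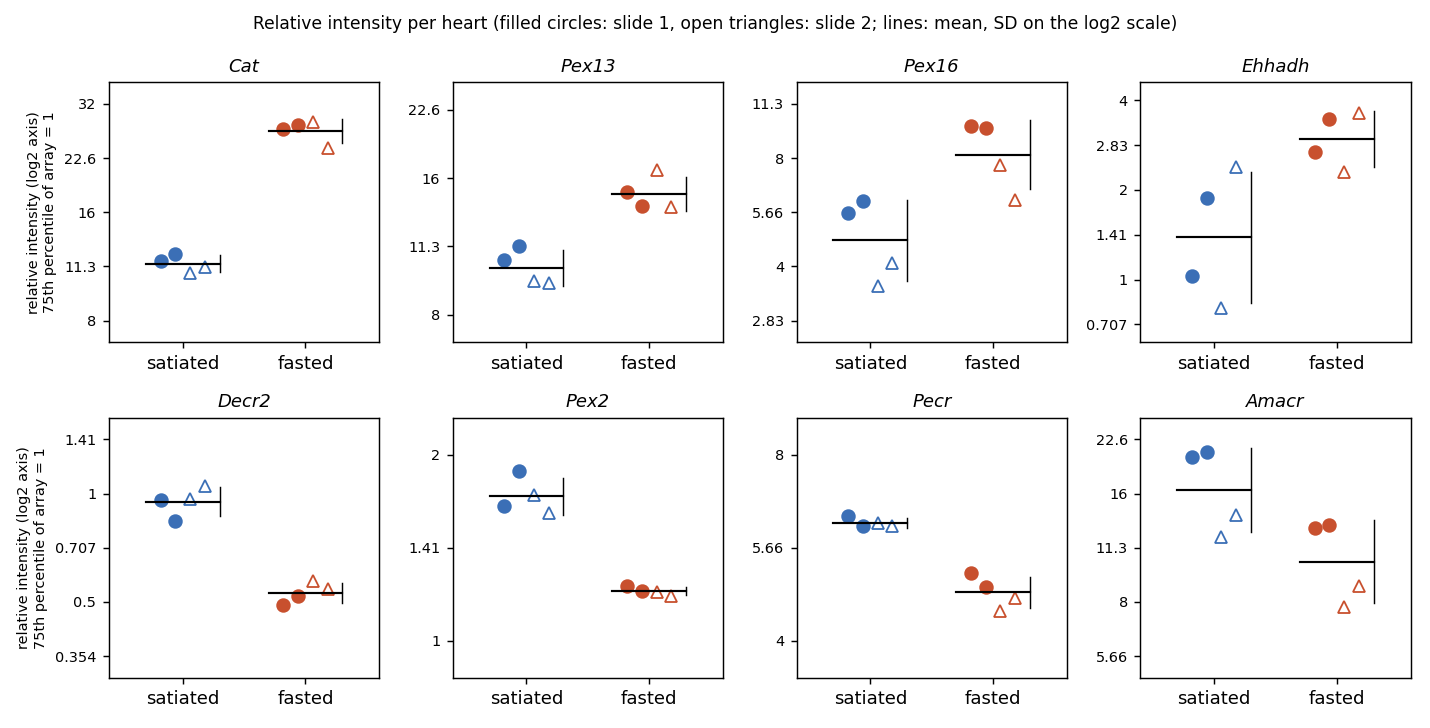
Relative intensity in each heart (y axis, log2 scale, 75th percentile of the array = 1) for 8 members in satiated and fasted hearts. Horizontal lines are means and vertical lines SD on the log2 scale; filled circles are slide 1 and open triangles slide 2. The groups are apart for Cat, Pex13, Pex16, Decr2, Pex2 and Pecr, and overlap for Ehhadh and Amacr.

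The other members of the spiral changed little. Hsd17b4, the D-bifunctional enzyme, ranged from 20.5 to 25.6 in the satiated and from 16.5 to 22.6 in the fasted hearts (-0.23 ± 0.14, adjusted p = 0.288). Acox3, an oxidase of branched chains, ranged from 1.68 to 2.27 and from 2.09 to 2.57 (0.23 ± 0.13, adjusted p = 0.28). The thiolases Acaa1a and Acaa1b, which cut the chain shorter, had changes of -0.09 ± 0.14 (adjusted p = 0.714) and -0.09 ± 0.13 (adjusted p = 0.672). Acaa1a ranged from 46.1 to 56.9 in the satiated and from 40.8 to 53.7 in the fasted hearts, and Acaa1b from 4.95 to 6.45 and from 4.61 to 5.81. The 3 probes of Acaa1a gave -0.05 to -0.09. These are close paralogues, and the files hold no probe sequences, so signal of one may in part be read from the other. Scp2, a sterol carrier and thiolase, ranged from 25.5 to 32.5 and from 24.8 to 32.3 and had a change of 0.04 ± 0.14 (adjusted p = 0.894).

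Of the 6 members that handle double bonds and branched chains, Decr2 and Pecr fell and 4 did not pass. That is 33.3% called, where 20.2% of everything tested passed and 10.3% was lower. Decr2, the peroxisomal dienoyl-CoA reductase, which removes double bonds of polyunsaturated chains, stood at 0.961, 0.840, 0.965 and 1.05 in the satiated and at 0.492, 0.520, 0.571 and 0.541 in the fasted hearts. All 4 fasted hearts lay far below all satiated hearts. Decr2 fell by 0.84 on the log2 scale (SE 0.12, 1.79-fold, adjusted p = 0.00263), with -0.83 on slide 1 and -0.85 on slide 2, and the call held without any single heart. Pecr, the peroxisomal trans-enoyl-CoA reductase, stood at 6.37, 6.14, 6.20 and 6.13 in the satiated and at 5.14, 4.88, 4.47 and 4.68 in the fasted hearts. The satiated hearts were nearly equal and all above the fasted ones.

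Pecr fell by 0.38 on the log2 scale (SE 0.10, 1.30-fold, adjusted p = 0.0329). The call of Pecr held without fasted replicate 3 and was lost without any other single heart, that is without satiated replicate 1, 2, 3 or 4 or fasted replicate 1, 2 or 4 (changes of -0.36 to -0.41, adjusted p of 0.0549 to 0.0848). It held with the slide as a block (adjusted p = 0.00767).

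Ech1, a dienoyl-CoA isomerase found in peroxisomes and mitochondria, stood at 96.3, 100.1, 103.9 and 105.1 in the satiated and at 123.6, 111.4, 147.1 and 116.0 in the fasted hearts. The groups did not overlap, but the change of 0.29 ± 0.12 did not pass (adjusted p = 0.136), nor with the slide as a block (adjusted p = 0.0558). Amacr, the racemase that readies branched chains for oxidation, stood at 20.2, 20.9, 12.1 and 13.97 in the satiated and at 12.8, 13.1, 7.74 and 8.86 in the fasted hearts. Fasted hearts were lower within each slide, and slide 2 was lower than slide 1 by 1.57-fold.

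The change of Amacr, -0.66 ± 0.25, did not pass (adjusted p = 0.101). It passed with the slide (SE 0.09, adjusted p = 0.00185) or the replicate number (adjusted p = 0.00593) as a block and on slide 1 alone (adjusted p = 0.0424), and was -0.65 on slide 2. Phyh, which starts the breakdown of phytanic acid, ranged from 83.1 to 107.6 in the satiated and from 79.9 to 107.8 in the fasted hearts and had a change of 0.03 ± 0.15 (adjusted p = 0.915), and Hacl1, the lyase that follows it, ranged from 0.0718 to 0.0963 and from 0.0804 to 0.124 (0.17 ± 0.17, adjusted p = 0.535). Crot, which makes carnitine esters of the shortened chains for export to mitochondria, ranged from 3.91 to 5.26 and from 3.46 to 5.52 and had a change of -0.03 ± 0.19 (adjusted p = 0.939) from one probe and -0.01 from the other.

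With the slide as a block 6 members rose and 5 fell, 39.3% of the members, against 35.5% of everything tested (17.1% higher and 18.4% lower). Those that joined were Pex5, Pex6 and Pex14 among the higher and Abcd3 and Amacr among the lower genes. A block for the replicate number gave 6 higher and 5 lower too (32.1% of everything tested), with Ehhadh in place of Pex5. Signal differed between the slides for 10 members (35.7%), against 30.7% of everything tested. The change had the same sign on both slides for 24 members (85.7%), against 81.1% of everything tested. On slide 1 alone Pex16, Cat, Amacr and Decr2 passed (9.32% of everything tested, 4.41% higher and 4.92% lower). On slide 2 alone no member passed in limma, where 0.00495% of everything tested did; at an unadjusted p under 0.05 it gave 3 members higher and 5 lower, beside 12.5% and 13.9% of everything tested. Without the filter on dim probes Pex13 (adjusted p = 0.0633), Pex16 (0.104), Pex2 (0.0518) and Pecr (0.124) no longer passed. At an unadjusted p under 0.05 that fit gave 4 members higher and 5 lower, beside 9.96% and 10.2% of everything tested. It holds more probes, and the cause of the lost calls was not tested. Pex16 also missed after quantile normalization (adjusted p = 0.0551), and Ehhadh (adjusted p = 0.0295) and Abcd3 (0.0242) passed after normexp background correction. With array weights Abcd3 (adjusted p = 0.0394) and Pex5 (0.0335) passed.

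**Figure D3:**
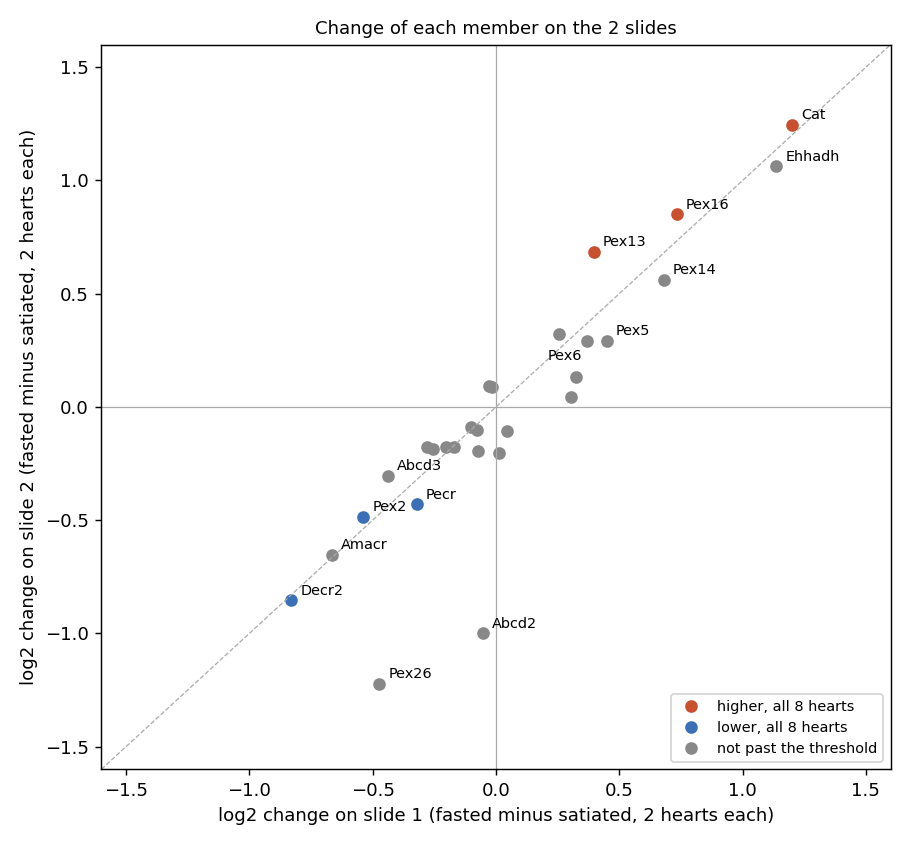
Log2 change with fasting on slide 1 (x axis) and on slide 2 (y axis) for the 28 members, with 2 hearts per group on each slide; the dashed line marks equal changes. Cat lies at 1.202 and 1.246, Decr2 at -0.83 and -0.85, and Abcd2, whose slide 2 values are not above background, at -0.05 and -0.999.

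Of 56 other peroxisome genes on a list, 46 were measured, and 13 rose, 6 fell and 27 did not pass. That is 41.3% called, beside 20.2% of everything tested, with a median change of 0.09. The list was chosen with earlier results of these data known, so its share cannot be read as that of an independent list. With the slide as a block 15 rose and 12 fell, and with a block for the replicate number 14 and 11. Of the other 16 genes of fat oxidation 6 rose and none fell without a block, beside 9.82% of everything tested higher and 10.3% lower; with the slide as a block 6 rose and 3 fell (17.1% and 18.4% of everything), and with the replicate block 6 and 2 (15.4% and 16.7%).

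Acox2, the oxidase of bile acid intermediates and branched chains, was dim, well above background in 3 of 4 satiated and all 4 fasted hearts. It stood at 0.0712, 0.0710, 0.0572 and 0.0409 in the satiated and at 0.222, 0.230, 0.341 and 0.155 in the fasted hearts and rose by 1.96 ± 0.27, or 3.89-fold (adjusted p = 0.00269). After normexp background correction its change was smaller, 1.12 (adjusted p = 0.0013). Eci3, an enoyl-CoA isomerase, rose by 0.60 ± 0.10 (adjusted p = 0.0062), although its paralogue Eci2 may share signal. The thioesterase gene Acot4 rose by 0.97 ± 0.23 (adjusted p = 0.0203), a call lost without satiated replicate 1 or 3 or fasted replicate 1 or 4 (adjusted p of 0.0506 to 0.0545). Its relative intensity was 0.0742 to 0.123 in the satiated and 0.143 to 0.237 in the fasted hearts. Over the settings tried the change of Acot4 spanned 0.64 to 1.11. The calls of Acox2 and Eci3 held without any single heart.

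Beside those 9.82% of everything tested higher and 10.3% lower, of 4 measured genes of ether lipid synthesis, the process that makes plasmalogens, Tmem189 rose (0.94 ± 0.21, adjusted p = 0.0172) and Dhrs7b fell (-0.49 ± 0.11, adjusted p = 0.019). The call of Dhrs7b was lost without satiated replicate 3 or 4 or fasted replicate 1 (adjusted p of 0.0548 to 0.0629) and with each array set to its median (adjusted p = 0.0541). Of 16 measured genes listed as other matrix and membrane proteins 4 rose and 2 fell, again beside 9.82% and 10.3% of everything tested. Where in the cell the proteins of these genes lie was not measured. Ephx2, a soluble epoxide hydrolase, rose by 0.98 ± 0.11 (adjusted p = 0.00122) and Xdh, xanthine dehydrogenase, by 1.43 ± 0.27 (adjusted p = 0.00837). Both calls held without any single heart.

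Nudt12, a hydrolase of NADH, rose by 0.69 ± 0.19 (adjusted p = 0.0372), a call lost without satiated replicate 1, 2 or 3 or fasted replicate 1 or 4 (adjusted p of 0.0685 to 0.099). Its relative intensity was 0.123 to 0.181 in the satiated and 0.195 to 0.283 in the fasted hearts. Over the settings tried the change of Nudt12 spanned 0.45 to 0.89. Ddo, D-aspartate oxidase, fell (-0.61 ± 0.15, adjusted p = 0.0262), a call lost without satiated replicate 1, 2 or 4 or fasted replicate 4 (adjusted p of 0.0529 to 0.0703). Of 5 measured genes of division and removal, Dnm1l (-0.42 ± 0.10, adjusted p = 0.021) and its membrane receptor Mff (-0.39 ± 0.10, adjusted p = 0.0254), which cut peroxisomes and mitochondria, fell. Nbr1, a receptor for the removal of peroxisomes, rose (0.38 ± 0.11, adjusted p = 0.0484). In all, 20.2% of everything tested passed.

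Dnm1l lost its call without any 1 satiated heart or fasted replicate 1 (adjusted p of 0.0527 to 0.0627), Mff without any 1 satiated heart or fasted replicate 1 or 4 (adjusted p of 0.0533 to 0.0777), and Nbr1 without any 1 of the 8 hearts (adjusted p of 0.0587 to 0.13). With each array set to its median Dnm1l (adjusted p = 0.0591), Nbr1 (0.129) and Nudt12 (0.068) did not pass either. All of Dnm1l, Mff and Nbr1 passed with the slide as a block.

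Of 8 measured genes of PPAR and RXR receptors and their coactivators, 1 rose and 1 fell, beside 9.82% of everything tested higher and 10.3% lower. Ppara, the gene of PPAR alpha itself, stood at 7.84, 6.06, 6.42 and 5.43 in the satiated and at 7.14, 4.64, 6.26 and 4.67 in the fasted hearts, which overlapped, with a change of -0.19 ± 0.19 (adjusted p = 0.52). Pparg, the PPAR of adipocytes, rose by 0.77 ± 0.14 (adjusted p = 0.00687), beside adipocyte markers whose summed relative intensity spanned 33.4 to 122 in the satiated and 69.5 to 88.7 in the fasted hearts, with Adig not above background on any array; the part of adipocytes was not tested. Rxrg, a retinoid receptor that pairs with PPARs, fell by 1.48 on the log2 scale (SE 0.23, adjusted p = 0.00418). The other 5 receptor and coactivator genes did not pass without a block. When the slide was the block, 2 of the 8 rose and 2 fell, beside 17.1% and 18.4% of everything tested. Under the replicate block 3 rose and 2 fell, beside 15.4% and 16.7%.

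**Figure D4:**
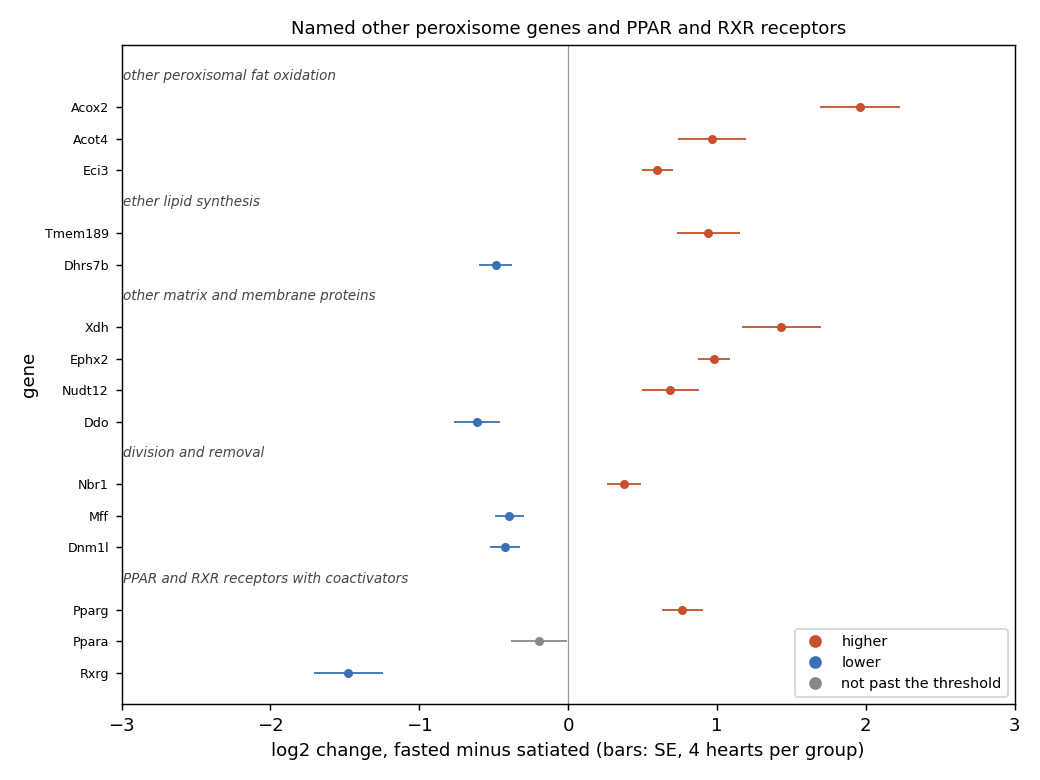
Log2 change with fasting (x axis, bars are SE, 4 hearts per group) of the 12 other peroxisome genes and 3 receptor genes named in the text, by list. Acox2 lies farthest to the right at 1.96 and Rxrg farthest to the left at -1.48.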

How the data were processed

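The values are spot intensities on a linear scale from the deposited scanner files, background-subtracted on each array with no normalization between arrays (per the file headers). They name Agilent Feature Extraction 10.5.1.1 (slide 1) and 10.7.3.1 (slide 2), the submitters' processing notes version 9.1. Log2 intensities were set relative to each array's 75th percentile. Control spots and spots marked as outliers were left out, and 26476 of 41174 probes were kept, those above background by the scanner's flag on 4 or more arrays. Symbols came from probe accessions for 26690 probes through RefSeq's gene names on GRCm38.p6, and the brightest kept probe stood for a gene. The groups were compared over all 20199 with limma 3.58.1 in R 4.3.3, two-sided, with Benjamini-Hochberg adjustment. The fit was tested on simulated data with independent noise and no slide effect. That test does not cover the slide differences of these data. The series table holds the authors' linear ratios per probe, made in a way not given in the sources used here, which served as an alternative. The deposited flag columns were used as they stand.

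The labels give each sample a heart number of its own, so each array was taken as the heart of a separate mouse. Same-numbered hearts of the groups deviated together from their group means (correlations across probes of 0.459, 0.499, 0.341 and 0.503), and replicate numbers share slides, so the number was also fitted as a block. The same held for different numbers on the same slide (0.304 to 0.531). The members and lists were chosen with earlier results of these data known. All members are named; of the other lists, up to 4 called genes with the smallest p and Ppara in any case, except for results that are not reported here. Alternatives were normexp correction (on spot and background medians, offset 50, since spot means were not used here as planned), quantile and median scaling, other filters and probe rules, array weights, blocks, single slides and leaving out each heart.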

Additional observations from a re-analysis of the deposited data

Results flagged for a closer look

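Mff in the fasted hearts had 1 sample that stood apart: fasted replicate 2 had a relative intensity of 12.3, while the other fasted hearts lay at 11.9. Its gap to the nearest of them was 0.908 of the group's range, past the 95% limit of Dixon's test. It was the only such case among 91 groups of 4 hearts, where chance alone would set apart about 1 in 20.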

How the results depend on the processing

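Over the settings tried, no change of a member or a named other gene that was called turned its sign. Of 586 values of single members under an alternative, 538 stayed on the same side of the threshold, 30 lost a call and 18 gained one. In 24 of them the sign turned, for 7 members that were not called; among these only Pex3 (0.14 from the mean of its probes) moved by more than the SE of its main value. Of 377 values of the named other genes, 291 stayed and 86 lost the call. Counts are given as higher and lower. Without the filter on dim probes 1 and 1 members passed, 7 and 0 other peroxisome genes, and 1058 and 1167 of everything tested. With the slide as a block 6 and 5 members passed, 15 and 12 other genes, and 3461 and 3716 of everything. With the replicate block these were 6 and 5, 14 and 11, and 3116 and 3373; it gave calls to Pex6, Pex14, Ehhadh, Abcd3 and Amacr and changed no other member's call. On slide 1 alone 5 and 0 other genes passed, and 890 and 993 of everything. On slide 2 alone these were 0 and 0 members, 0 and 0 other genes, and 0 and 1 of everything. At 2-fold or more 1 and 0 members passed, 2 and 0 other genes, and 748 and 742 of everything. Leaving out 1 heart at a time gave 1 to 3 members higher and 2 to 4 lower, 7 to 10 and 0 to 6 other genes, and 1202 to 1764 and 1290 to 1926 of everything. At an unadjusted p under 0.05 limma gave 12 and 6 other genes on slide 2 alone, 14 and 9 on slide 1 alone, 14 and 8 without the filter, and 3 and 5 members on slide 2 alone; of everything tested it gave 12.5% and 13.9% on slide 2, 15.4% and 17.1% on slide 1, and 9.96% and 10.2% without the filter. The single slides hold fewer hearts and the unfiltered fit more probes. The cause of these changes in the counts was not tested. Slide, scan and software version cannot be told apart. Dim members such as Abcd2 are limited by signal near background, and the levels of paralogues by probes whose sequences were not used here.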
